A study of Mus musculus with 96 samples.

Results

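The cytosolic ribosomal protein genes were taken by symbol: Rpl or Rps followed by a digit, the stalk genes Rplp0 to Rplp2, and Rpsa, leaving out the ribosomal S6 kinases and pseudogene names. Of the 16593 genes with a named probe, 66 were members, read at the brightest probe of each gene. The reference annotation holds 89 protein-coding genes of this rule, so the remaining genes have no probe here. By role, 58 members encode core proteins of the ribosome, 23 of the small and 35 of the large subunit. A further 6 are paralogs of core genes (Rpl3l, Rpl7l1, Rpl22l1, Rpl36al, Rpl39l and Rps27l). The other 2 share only the form of the symbol: Rps19bp1 encodes a protein that binds Rps19, and Rps23rg1 is a retrogene derived from Rps23.

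A cytosolic ribosome joins a small subunit, which reads the mRNA, to a large subunit, which forms the peptide bond. Each subunit holds a fixed set of proteins, and the cell makes them in matched amounts. Most of their mRNAs begin with a pyrimidine tract that places their translation under the growth regulator mTOR, and resting and activated lymphocytes differ widely in ribosome production. Several of these genes also have a named place outside the ribosome: Rpl5 and Rpl23 can bind Mdm2 and so stabilise p53, and loss of 1 copy of genes such as Rps19 causes Diamond-Blackfan anaemia in humans.

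The members were measured by Illumina bead arrays in whole spleen and whole blood of 48 male mice during collagen induced arthritis, a joint disease provoked by immunisation with cartilage collagen. Mice of the BQ strain, either wild type or of the mutant strain C57BL/10.Q/rhd.Ncf1m1J, were taken 15 or 44 days after immunisation. The product of Ncf1 is p47phox, the organiser that phagocytes need to switch on their NADPH oxidase and so make reactive oxygen species. Crossing tissue, genotype and day gave 8 groups of 12 arrays, of which 6 came from experiment I and 6 from experiment II. All mice were immunised, no tissue was cultured or sorted, the age is not stated in the labels, and Ncf1m1J is a mutation of the strain, not of a single cell type. Globin transcripts were removed from all samples. Experiment I used Ambion RiboPure kits, with lithium chloride precipitation for blood, and experiment II used Qiagen RNeasy kits with stabilising tubes or solution. Titles name the mouse, so its spleen could be set against its own blood. In bulk tissue, fewer cells of a type and less RNA per cell cannot be told apart.

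Ncf1 itself, the mutated gene, was lower in the mutant. In spleen its level (log2 intensity) ran from 6.66 to 7.41 in wild type and 6.01 to 6.57 in mutant mice of experiment I, and from 7.04 to 7.91 against 6.18 to 6.88 in experiment II, with no overlap within an experiment. The genotype difference was -0.86 ± 0.06 (log2, SE; limma adjusted p = 1.9e-14) in spleen and -0.55 ± 0.07 in blood (limma adjusted p = 1.13e-06), where the wild type range of 5.91 to 6.73 overlapped the mutant range of 5.74 to 6.34 in experiment I. The tissue labels were borne out by Vcam1 and Spic, genes of splenic macrophages, which were higher in spleen than in blood of the same mouse by 6.47 and 4.27 on the log2 scale. Some arrays held transcripts of the exocrine pancreas, an organ that lies against the spleen. Over the 29 pancreas markers measured, 4 spleens and 7 bloods exceeded the median array by more than 1 log2 unit, all of experiment I. Of these, 3 spleens and 5 bloods were wild type. Below this cutoff, spleen II-14 of experiment II had a marker mean of 6.996, where the median spleen of that experiment had 6.28. Spleen I-38 of experiment I, at 7.24, was below the cutoff too. Arrays and mice with pancreas transcripts are, in what follows, those above the cutoff, so the refits without them still hold such spleens.

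In both tissues the ribosomal proteins were among the brightest genes of the array. Of the 58 core members, 37 in spleen and 35 in blood lay in the top 1% of genes, and 13 in spleen and 7 in blood were within 1 log2 unit of the highest value an array holds (15.2 in spleen, 15.4 in blood), where a bead array has little room to rise. At the other end, 6 core genes were below the median gene in each tissue. They were Rpl6, Rpl14, Rpl17, Rplp2, Rps23 and Rpsa, whose products are present in every ribosome. For Rpsa, the laminin receptor gene, group means in spleen were only 6.33 to 6.48. Such a probe reports little of its gene's RNA, and its differences are bounded by the background. Averaged over the 58 core members, an array's mean level in spleen was 12.26 ± 0.06 (SD, n = 12) for the wild type at day 15 and 12.20 ± 0.05 for the mutant, and it was 12.18 ± 0.09 and 12.11 ± 0.13 at day 44. The blood arrays gave 11.74 ± 0.26 and 11.81 ± 0.25 at day 15, then 11.87 ± 0.19 and 11.84 ± 0.16. The groups overlapped in both tissues. Blood of experiment I was the most variable set, with array means from 11.17 to 12.01, against 11.79 to 12.12 in experiment II.

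**Figure D1:**
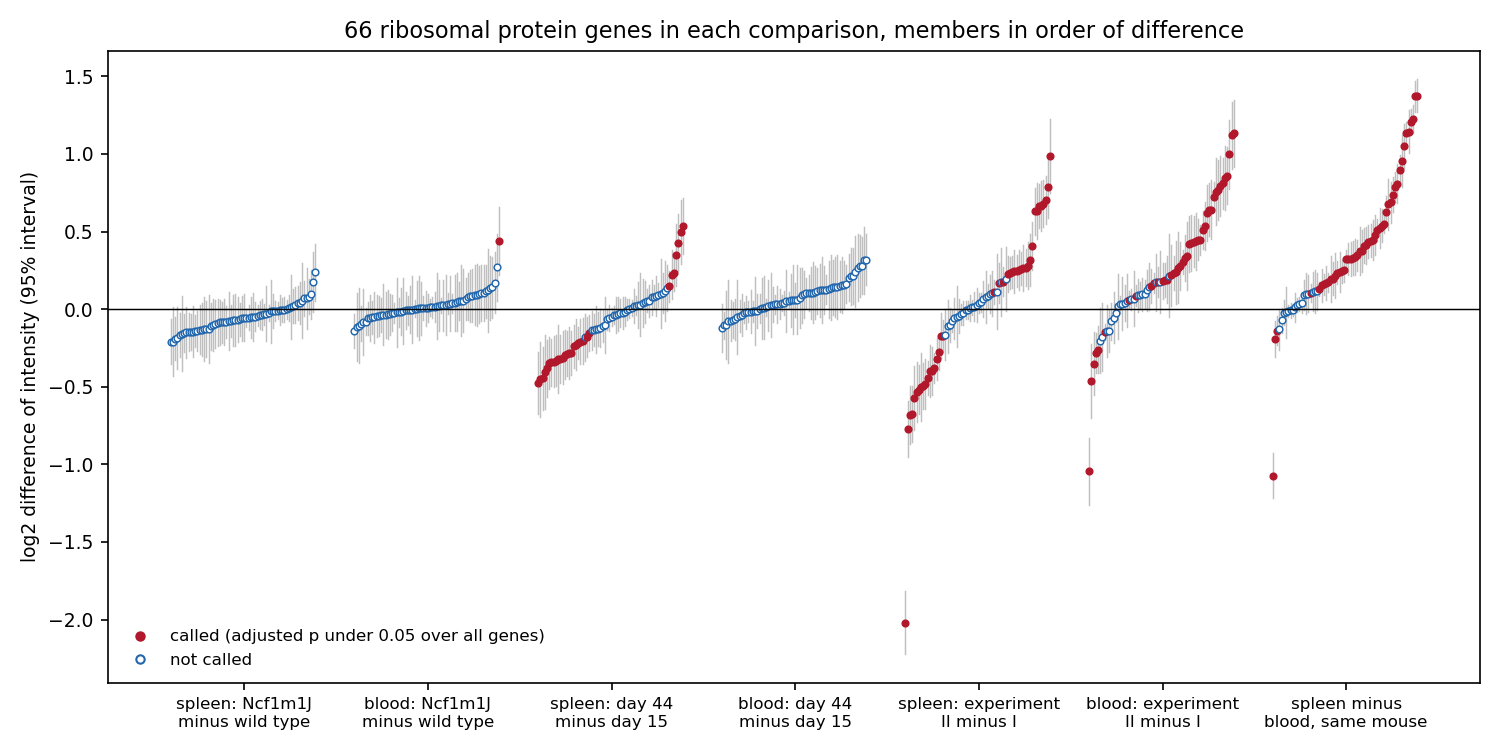
Difference in log2 intensity of each of the 66 genes (points, with 95% interval as a grey line) in 7 comparisons, sorted by size within each. Filled red points pass an adjusted p of 0.05 over all genes. By genotype they number 0 and 1 in spleen and blood (10.5% and 1.13% of all genes), and by day 30 and 0 (22.9% and 0.0783%). Between the experiments they number 41 and 43 (55.1% and 65.5%), and between the tissues 49 (77.1%).

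Letters of the pyrimidine tract can be looked for in the DNA at the start sites. Genes without the exact letters counted below can still begin with such a tract. The start regions of Rpl7a and Rpl27a, for example, hold runs of C and T but neither CTTTCC nor CTCTTT. Promoter sequences from RefSeq (build GRCm38.p6) were at hand for 57 of the 66 members. Between 20 bases before and 50 bases after an annotated start, on the sense strand, the letters CTTTCC were found for 15 members (26.3%) and for 3.79% of the 27025 genes with a promoter. The letters CTCTTT were found for 17 members (29.8%) and for 3.04% of all genes, and either one for 26 members (45.6%) against 6.33%; both can overlap, sharing CTTT. Over the whole 300 bases and on both strands, either one was found for 41 members (71.9%) and for 44.8% of genes. CCGGAAG, a core of ETS factor sites, was found there for 22 members (38.6%) against 9.93%, and AAGATGG, a core of YY1 sites, for 10 (17.5%) against 7.28%. The stretches of 30 bases below show start regions with the motif (capitals) for Rpl28, Rps27 and Rps6, which fell between the days in spleen, and Rpl4, which differed between the tissues, then those of the genes on which the results below turn and in which neither motif was in that window. They were Rpl28 (chr7:4792953-4792982, plus strand), Rps27 (chr3:90213630-90213659, minus strand), Rps6 (chr4:86857350-86857379, minus strand), Rpl4 (chr9:64173358-64173387, plus strand), Rplp0 (chr5:115559457-115559486, plus strand), Rps13 (chr7:116334171-116334200, minus strand), Rps16 (chr7:28350679-28350708, plus strand), and Rpl3l (chr17:24727816-24727845, plus strand, the upstream of its 2 annotated starts).
Rpl28: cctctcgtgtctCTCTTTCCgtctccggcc
Rps27: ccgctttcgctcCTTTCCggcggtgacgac
Rps6: cggaagtcgggcCTCTTTttcgtgacgcct
Rpl4: caagtgacaagtCTTTCCttttcctgtggg
Rplp0: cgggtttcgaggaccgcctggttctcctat
Rps13: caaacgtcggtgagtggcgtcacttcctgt
Rps16: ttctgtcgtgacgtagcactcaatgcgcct
Rpl3l: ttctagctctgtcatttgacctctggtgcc

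Whether the Ncf1 mutation moved ribosomal protein transcripts in spleen was asked over both days. In the spleen, 0 of the 66 members were called in limma at an adjusted p under 0.05, where 10.5% of all genes were. An unadjusted p under 0.05 was found for 9 members and for 3458 of the 16593 genes. The differences of mutant minus wild type were small and mostly negative, with 53 negative and 13 positive, a median of -0.06 (log2) against -0.01 over all genes, and a range from -0.21 to 0.24. For 49 members the sign was the same in both experiments. The 95% intervals of all 66 lay within 0.5 log2 units of no difference, and those of 40 within 0.25. At day 15 alone 0 members were called in limma (background 2.47% of genes) and at day 44 alone 0 (background 5.19%). For the change of the genotype difference between the days 0 were called too (background 0% of genes). Members with an unadjusted p under 0.05 numbered 1, 5 and 2 in this order, against 2043, 2499 and 363 of the 16593 genes.

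The member with the smallest p was Rps16, a small subunit protein whose tail reaches the tRNA site. In experiment I its spleen level (log2 intensity; lowest, median, highest) was 13.10, 13.76 and 13.84 in wild type and 12.84, 13.53 and 13.76 in mutant mice at day 15, and 12.95, 13.24 and 13.38 against 12.54, 12.97 and 13.70 at day 44. In experiment II it was 13.11, 13.32 and 13.52 against 13.04, 13.23 and 13.32 at day 15, and 12.93, 13.24 and 13.61 against 12.72, 12.996 and 13.10 at day 44. The mutant median was the lower of each pair, and the ranges overlapped in all 4. The difference for Rps16 was -0.21 ± 0.07 (log2, SE; limma adjusted p = 0.0523), and experiments I and II gave -0.20 and -0.22. Next came Rpl23a, which sits at the exit of the peptide tunnel, at -0.14 ± 0.05 (adjusted p = 0.0715), the X-linked Rps4x at -0.19 ± 0.07 (adjusted p = 0.0738), and Rps19 at -0.16 ± 0.06 (adjusted p = 0.101). These values lie close to the threshold, and the set of genes or spleens in the fit decided the call. Over genes above the median level (22.7% of them called), Rps16 (limma adjusted p = 0.0307), Rps4x (0.0443) and Rpl23a (0.0487) passed. Without 4 spleens of experiment I that lay with the other day (described with the day comparison), 9.61% of genes were called. There Rps16 fell by 0.23 on the log2 scale (limma adjusted p = 0.0135), and Rpl23a, Rpl9 and Rps19 passed as well. These spleens were picked by their expression and were mostly mutant (I-21, I-23 and I-34, against wild type I-22), so this refit cannot decide the call.

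Rplp0, the protein that anchors the stalk through which the large subunit recruits elongation factors, had the largest positive value among the brightest probes. In experiment I its spleen level (log2 intensity; lowest, median, highest) was 8.69, 8.92 and 9.88 in wild type and 8.87, 9.14 and 10.31 in mutant mice at day 15, and 9.78, 10.04 and 10.08 against 9.72, 10.14 and 10.20 at day 44. In experiment II it was 8.52, 8.63 and 8.99 against 8.61, 8.74 and 8.95 at day 15, and 8.57, 8.75 and 8.996 against 9.04, 9.18 and 9.45 at day 44. Only the last pair did not overlap. The genotype difference of Rplp0 was 0.24 ± 0.09 (log2, SE; limma adjusted p = 0.0919) over both experiments, and in experiment II alone it was 0.24 (adjusted p = 0.0144), and 0.43 at day 44 (adjusted p = 0.00378). In experiment I the value was 0.23. The only other member called in experiment II alone was Rps15, which human cells need to export the small subunit from the nucleus, at -0.19 (adjusted p = 0.0469). In experiment II 7.94% of genes were called in this comparison. When every probe was tested, a dimmer probe of Rpl38 was called over both experiments, at 0.33 ± 0.11 (limma adjusted p = 0.0366), where its bright probe, near the top of the intensity range, gave 0.04.

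**Figure D2:**
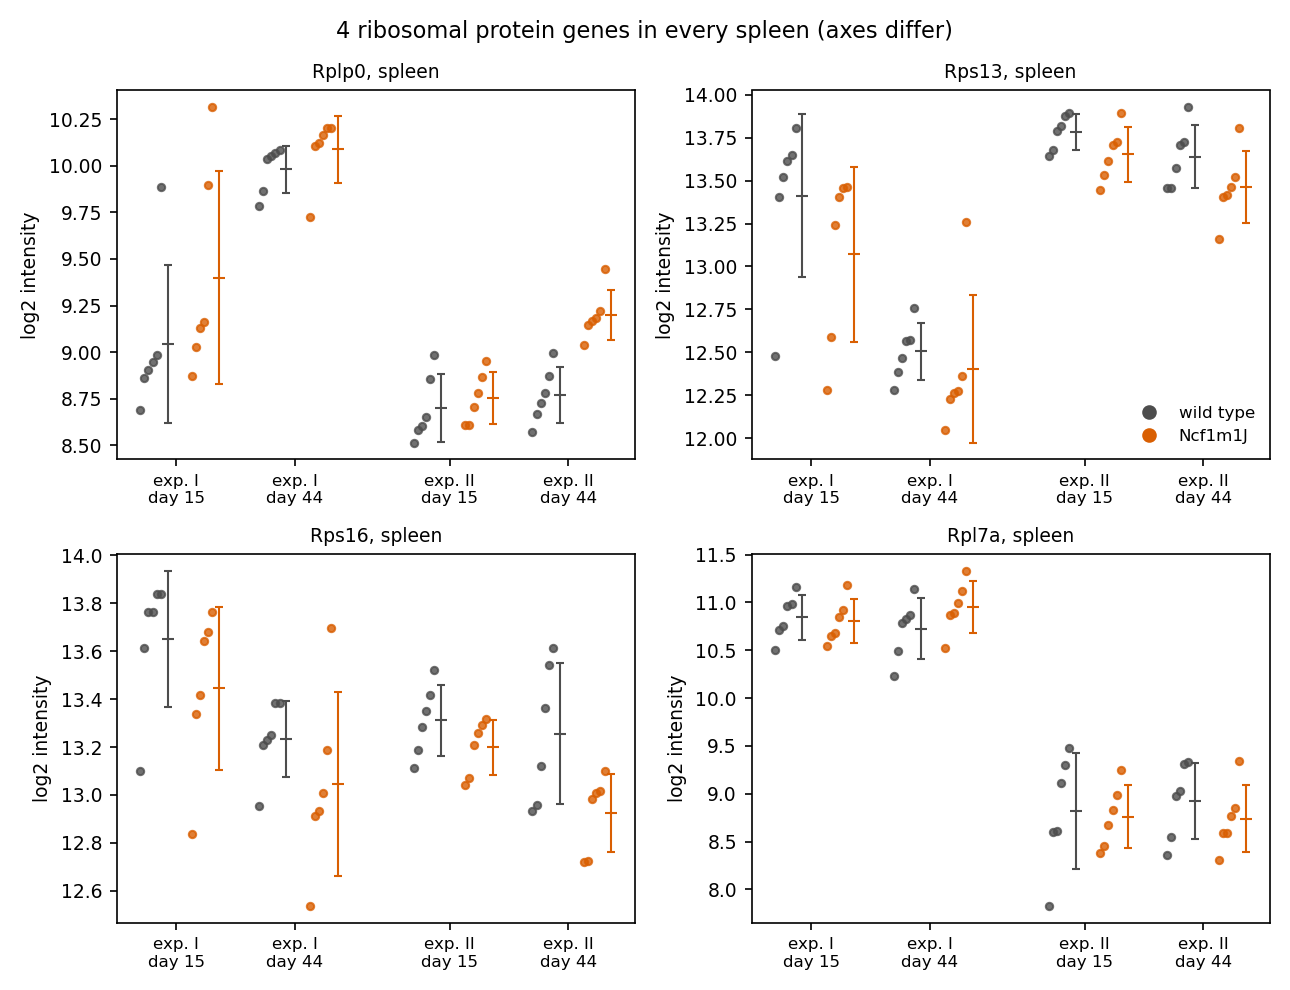
Spleen level (log2 intensity) of Rplp0, Rps13, Rps16 and Rpl7a in each mouse (points), by experiment, day (d15, d44) and genotype, with the mean and SD beside each group of 6. Rplp0 is higher and Rps13 lower at day 44 in experiment I, where single mice of each day lie with the other day, and Rpl7a is about 2 log2 units lower in experiment II.

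Lists of related members gave values in the same range in spleen. Of the 13 measured genes mutated in Diamond-Blackfan anaemia, 11 were negative and 2 positive, where most members were negative. Of the 4 stalk genes (Rplp0, Rplp1, Rplp2 and Rpl12), 2 were positive and 2 negative. Among 5 genes whose products bind Mdm2 or regulate p53 (Rpl5, Rpl23, Rpl37, Rps7 and Rps27l), 3 were negative and 2 positive. The 6 paralogs ran from small negative values to Rpl3l at 0.17, with 0 called and 0 below an unadjusted p of 0.05 in limma. Elsewhere in the translation machinery, 0 of 19 elongation factors and other genes with a pyrimidine tract were called (1 with an unadjusted p under 0.05). Of 20 initiation genes 3 were called: Eif4ebp1, the repressor of the cap-binding protein, rose by 0.32 (limma adjusted p = 0.00867), Eif2s2 rose by 0.17 and Eif4a2, a helicase of the cap complex, fell by 0.31. Of 72 genes of ribosome biogenesis 1 was called, Mrto4, an assembly factor of the large subunit, which rose by 0.22. Of 13 regulators of ribosome levels 2 were called, Eif4ebp1 again and Hbs1l, a rescue factor for stalled ribosomes, which rose by 0.18. Over all genes 10.5% were called, so the counts of initiation genes and regulators were near that share. Those of elongation factors and biogenesis genes were below it. Cell type markers were called far more often: 17 of 20 T cell and 15 of 17 B cell markers were lower in the mutant spleen, and 21 of 28 erythroid, 21 of 22 neutrophil granule and 28 of 35 cell cycle markers were higher. At day 44 the mean level of the B cell markers ran from 9.53 to 10.63 in wild type and from 9.04 to 10.13 in mutant spleens, and that of the neutrophil markers from 8.54 to 10.04 and from 9.90 to 11.30. Their part in the members' values was not tested.

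In blood, Rpl3l was the 1 member called in the genotype comparison (background 1.13% of genes). Rpl3l is a paralog of Rpl3 best known from striated muscle. In experiment I its blood level (log2 intensity; lowest, median, highest) was 6.59, 7.57 and 7.67 in wild type and 6.96, 7.57 and 8.50 in mutant mice at day 15, and 6.88, 7.42 and 7.97 against 7.50, 7.98 and 8.67 at day 44. In experiment II it was 8.29, 8.52 and 8.94 against 8.52, 8.69 and 9.05 at day 15, and 7.96, 8.32 and 8.55 against 8.52, 8.79 and 8.99 at day 44. The mutant mice were higher at day 44, with ranges that overlapped in both experiments; at day 15 of experiment I the medians were nearly equal. Over both days Rpl3l rose by 0.44 ± 0.11 (log2, SE; 1.36-fold; limma adjusted p = 0.026), where experiment I alone gave 0.54 (adjusted p = 0.888) and experiment II alone 0.34 (adjusted p = 0.0126).

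At day 44 alone Rpl3l was again the 1 member called in blood (background 1.43%), at 0.59 ± 0.16 (log2, SE; limma adjusted p = 0.0377). At day 15 0 members were called in limma (background 0.145%), and for the genotype by day difference in blood 0 (background 0.00603%). In each, 7 members had an unadjusted p under 0.05, against 944 and 1251 of the 16593 genes. The call for Rpl3l rested on the arrays and the terms in the fit. Without the 7 bloods with pancreas transcripts, of which 5 were wild type, the difference of Rpl3l over both days was 0.30 (limma adjusted p = 0.119). Without the 10 mice with such transcripts in either tissue, 7 of them wild type, it was 0.31 (limma adjusted p = 0.0535). The call was also lost in experiment I alone and with no experiment term. Its common relative Rpl3, a core protein next to the peptidyl transferase centre, had a blood difference of -0.00. In blood of mutant mice 10 of 22 neutrophil markers were higher, and at day 44 their mean level ran from 7.11 to 8.50 in wild type and from 8.12 to 9.13 in mutant mice; the part of these cells in the level of Rpl3l was not tested.

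**Figure D3:**
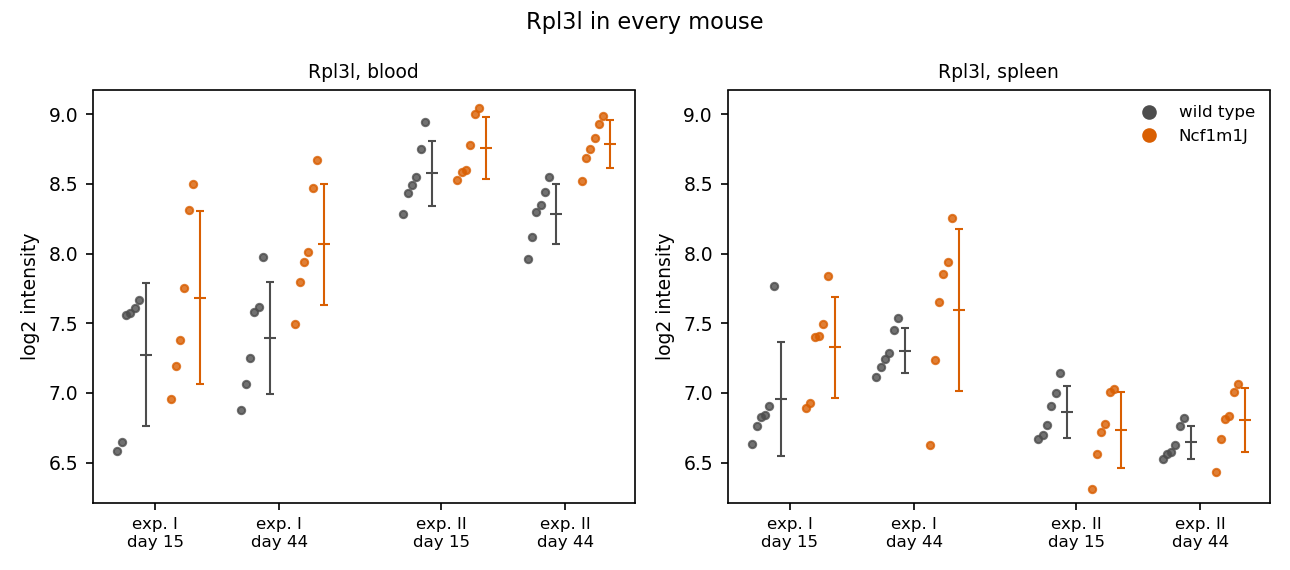
Level of Rpl3l (log2 intensity) in each mouse (points), by experiment, day and genotype, with the mean and SD beside each group of 6. Blood levels of experiment II (7.96 to 9.05) lie mostly above those of experiment I, and mutant mice exceed wild type at day 44 with overlap.

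Experiment II alone, whose blood arrays were more alike, held further genotype differences in blood. At day 15 of that experiment 6 members were called, where 2.68% of genes were, and all 6 were higher in the mutant. The split of all genes by direction is not given for that experiment. In the fit over both experiments, 22 of the 24 genes called at day 15 in blood were higher. Rps7, a small subunit protein that can bind Mdm2, ran from 12.87 to 13.40 in wild type and from 13.57 to 13.93 in mutant blood, with no overlap, and rose by 0.55 (log2; limma adjusted p = 0.00151). Rpl7a ran from 8.68 to 8.998 against 9.37 to 9.60, also with no overlap, and rose by 0.67 (adjusted p = 0.0161). Rps6, the target of the S6 kinases, had a lowest, median and highest level of 12.90, 13.35 and 13.51 in wild type and 13.48, 13.77 and 13.89 in mutant blood, and rose by 0.45 (adjusted p = 0.00626). Rpl27 rose by 0.44, Rps16 by 0.34 and Rpl36al by 0.33. In experiment I the same day 15 differences were 0.27 for Rps7, 0.17 for Rpl7a, 0.21 for Rps6 and 0.22 for Rpl27, all positive and none called; the difference between the experiments was not tested for genotype. At day 44 of experiment II only Rpl3l was called, and the change of the genotype difference between the days was called there for 5 members (Rps7, Rps6, Rpl27, Rps3 and Rpl9; background 4.16%), each with a lower value at day 44 than at day 15. Over both experiments the day 15 values were 0.41 ± 0.14 for Rps7 (adjusted p = 0.507) and 0.42 ± 0.15 for Rpl7a (adjusted p = 0.586).

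Between day 15 and day 44 after immunisation, 30 of the 66 members changed in spleen in limma, where 22.9% of all genes did: 7 were higher and 23 lower at day 44. The members did not move as a block. Of the small subunit core 9 were called among 23, and of the large subunit core with the stalk 17 among 35. The highest rise was that of Rplp0, by 0.54 ± 0.09 (log2, SE; 1.45-fold; adjusted p = 0.000375), followed by Rps23rg1 (0.50), Rpl29 (0.43), Rps15a (0.35), Rpl3 (0.23), Rpl4 (0.22), a protein of the exit tunnel wall, and Rps19bp1 (0.15). The largest fall was that of Rps13, of the small subunit, at -0.48 ± 0.10 (adjusted p = 0.00117). It was followed by Rps27l, a paralog of Rps27 that p53 induces (-0.45), Rpl30 (-0.45), Rps15 (-0.41), Rpl34 (-0.38), Rpl27 (-0.35), Rpl36al (-0.34), Rpl31 (-0.34) and Rps6 (-0.33).

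These differences came mainly from experiment I. Fitted alone, experiment I called 33 members (30.8% of genes) and experiment II called 0 (limma; 0.00603% of genes). The sign was the same in both experiments for 27 of the 30, every one of the 30 was larger in experiment I, and their median size there was 0.46, against 0.11 in experiment II. Rplp0 rose by 0.81 in experiment I and gave 0.26 in the other, and Rps13 gave -0.79 and -0.17. Rps6 gave -0.33 in each after rounding. The test of the difference between the experiments was called for 17 members (background 14.8% of genes). Of the 23 lower members 9 had a called positive difference between experiments, led by Rps15 at 0.94 ± 0.20 (limma adjusted p = 0.00213) and Rpl19 at 0.86 ± 0.18 (adjusted p = 0.00213), and of the 7 higher members 5 had a called negative one, from Rps23rg1 at -0.73 to Rpl4 at -0.43. Rps15 and Rpl19 were the members whose day difference changed sign, from -0.88 to 0.06 and from -0.75 to 0.11, together with Rpl12, from -0.37 to 0.01.

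Within experiment I the split by day was not clean. On the first principal component of the 16527 genes that are no members (55.1% of the variance of those spleens), 9 of the 12 spleens of day 15 lay from -39.88 to -25.98. The other 3, 1 wild type and 2 mutant, lay from 19.44 to 28.83, among the spleens of day 44, and 1 mutant spleen of day 44 lay apart from the rest of its day at -6.73. For Rplp0, the 3 spleens of day 15 that lay with day 44 had levels (log2 intensity) of 9.88, 9.90 and 10.31, the other 9 ran from 8.69 to 9.16, and those of day 44 from 9.72 to 10.20. For Rps13 the 3 had 12.48, 12.59 and 12.28 and the other 9 ran from 13.24 to 13.81; the mutant spleen of day 44 that lay apart had 13.26, where the other 11 ran from 12.05 to 12.76. The 3 spleens carry the 3 highest mouse numbers of their day. In experiment II, 6 of the 12 spleens of each day lay on either side of 0. At day 44 those below 0 (-24.71 to -2.155) were all wild type and those above (8.486 to 19.54) all mutant, so the split there went with genotype. At day 15 both genotypes lay on both sides. All spleens were kept with their labelled day in the day comparison, and no refit without these 4 was made there, since they were picked by their expression.

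**Figure D4:**
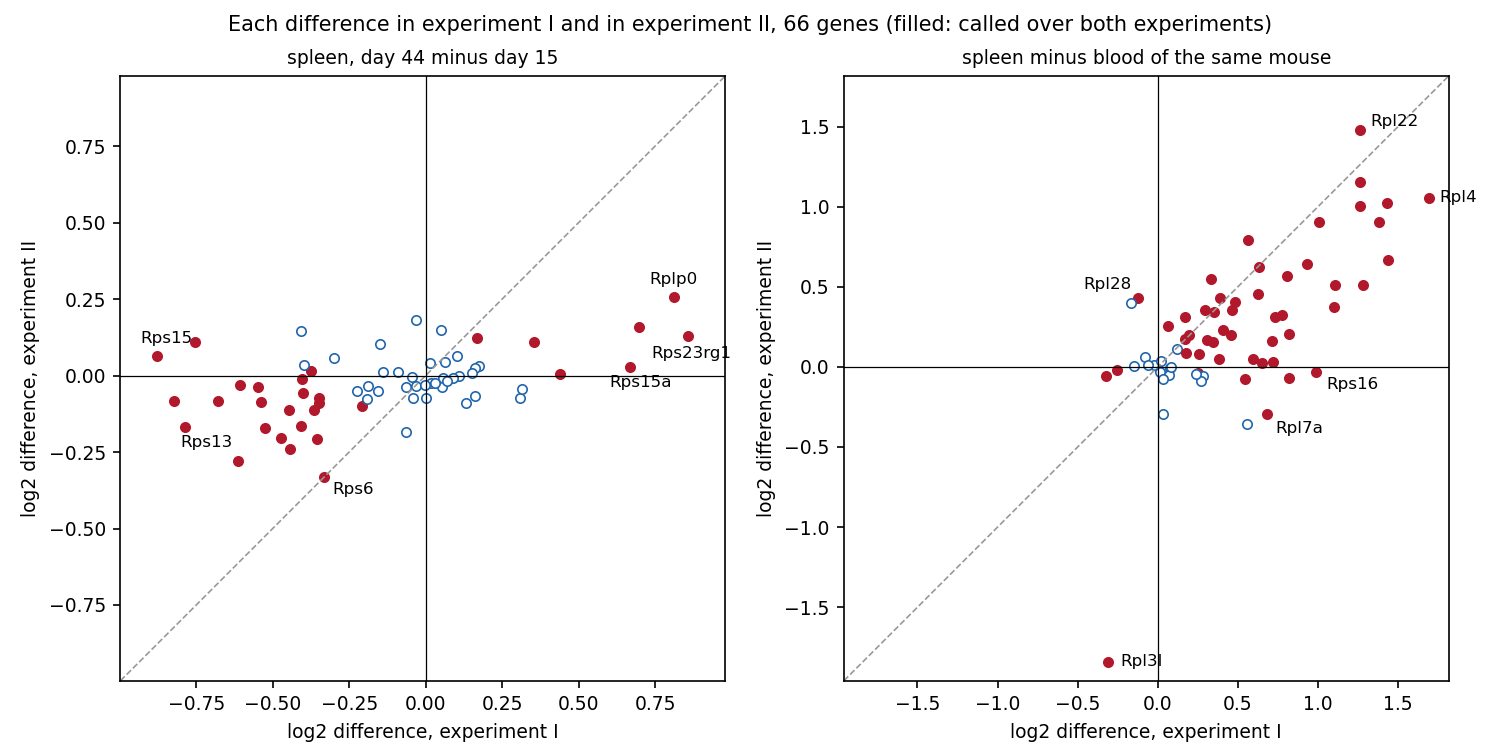
Left, day 44 minus day 15 difference in spleen (log2) of each member in experiment I (horizontal) and II (vertical); right, spleen minus blood difference. Filled points are called over both experiments and the dashed line marks equal values. The 30 genes called by day are all larger in experiment I, and Rpl3l is lowest in the tissue plot at -0.31 and -1.84.

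The count also moved with the arrays and terms in the fit, as it did for genes at large. Without the 4 spleens with pancreas transcripts 18 members were called by day (10.4% of all genes), and without the 10 mice with such transcripts in either tissue 4 were (3.49% of genes). All of these mice are of experiment I, so leaving them out also takes away mice of the experiment with the larger day difference, and the part of pancreas RNA was not tested. Without an experiment term 18 members were called (10.4% of genes). Probes of 1 gene also disagreed. Rpl29 rose by 0.43 at its bright probe, and its dimmer probe gave -0.24 (limma adjusted p = 0.201). Rps9 gave -0.14 at the bright probe and rose by 0.39 at the dimmer one (adjusted p = 0.00196), Rps24 gave 0.08 and rose by 0.40 (adjusted p = 0.00461), and Rpl31 fell by 0.34 at the bright probe and gave 0.03 at the other. The annotation lists 306 ribosomal protein pseudogenes, and probes that pair with one of them, or with some transcript forms only, cannot be told apart here because probe sequences were not used.

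By list, 5 of the 13 Diamond-Blackfan genes were called by day in spleen: Rps7, Rps27, Rpl27 and Rpl31 were lower and Rps15a higher; over all genes 22.9% were called, 11.4% lower and 11.5% higher. Of the 5 genes tied to p53, Rps7 and Rps27l were lower and the others were not called. Of the stalk genes, Rplp0 was higher and Rpl12, which sits at the stalk base, lower, with Rplp1 and Rplp2 not called. Of the paralogs, Rps27l and Rpl36al were lower. Of their parents, Rps27 fell by 0.28 and Rpl36a gave 0.10 (not called); the difference between parent and paralog was not tested. Among members with a promoter sequence, 9 of the 26 with CTTTCC or CTCTTT at the start were called lower and 2 higher. Of the 31 without these letters 13 were lower and 3 higher, to be read against the same shares of all genes. Those 31 can still begin with a pyrimidine tract, so this is no split by the tract. Fau, whose product is a ubiquitin-like protein fused to a ribosomal protein, fell by 0.41. Of 19 elongation factors and other genes with a pyrimidine tract, 5 were higher and 4 lower, among them Eef1b2 (-0.45), Btf3 (-0.39) and Naca (0.27). Of the 20 initiation genes 9 were called, including Eif4ebp2 (-0.79) and Eif4ebp1 (0.36), and of 72 biogenesis genes 12 were higher and 15 lower, from Bop1 (0.57) to Imp4 (-0.47). Of the 13 regulators 3 were called, among them Pelo (0.38) and Mtor (-0.13). B cell markers were lower for 13 of 17 and cell cycle markers higher for 13 of 35. The mean level of the B cell markers ran from 9.22 to 10.70 at day 15 and 9.04 to 9.80 at day 44 in experiment I, and from 9.89 to 10.76 and 9.58 to 10.63 in experiment II. Their part in the members' day difference was not tested.

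For the same comparison of days in blood, 0 members were called in limma (background 0.0783% of genes), and 49 values were positive and 17 negative. An unadjusted p under 0.05 was found for 15 members and for 1571 of the 16593 genes. Of the 30 members called in spleen, 24 had the opposite sign in blood, where none was called. Most of the 30 were lower in spleen and most blood values of members were positive, so opposite signs follow largely from these tallies. The share of opposite signs over all genes was not counted. Rpl30, which fell by 0.45 in spleen, gave 0.32 ± 0.08 in blood (limma adjusted p = 0.104), where the experiments gave 0.45 and 0.18. All 13 Diamond-Blackfan genes were positive in blood, as were 49 of the 66 members, and none passed the test. In experiment II alone 4 members were called by day in blood, where 4.8% of genes were: Rps16 (0.33), Rps13 (0.31) and Rpl30 (0.18) were higher at day 44 and Rplp0 (-0.25) lower, each opposite to its sign in spleen.

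The 2 experiments, which differed in RNA kits and in stabilisation, gave more called members than genotype or day did, as they did for genes at large. In spleen 41 members differed, 23 higher and 18 lower in experiment II, where 28.9% of all genes were higher and 26.2% lower (55.1% called). In blood 43 differed, 37 higher and 6 lower, where 36.2% of all genes were higher and 29.3% lower (65.5% called). The number of members called in blood was thus near the background. Rpl7a was the extreme. Its spleen level ran from 10.23 to 11.33 (log2 intensity) over all 24 mice of experiment I and from 7.83 to 9.48 over all 24 of experiment II, without overlap, a difference of -2.02 ± 0.10 (log2, SE; limma adjusted p = 2.25e-21), and in blood it fell by 1.05. In spleen Rps15 (0.99), Rps13 (0.79), Rpl28 (0.70), Rps10 (0.68), Rpl22 (0.67) and Rps27 (0.66) were higher in experiment II, and Rplp0 (-0.77), Rpl29 (-0.68) and Rpl24 (-0.68) lower. In blood Rps4x (1.13), Rps13 (1.12), Rpl3l (1.00), Rpl19 (0.86) and Rps16 (0.85) were higher and Rpl24 (-0.35) and Rps23rg1 (-0.46) lower.

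Of the 29 members that differed between experiments in both tissues, 22 went the same way, 18 higher and 4 lower in experiment II, and 7 went opposite ways. Rpl3l was lower in spleen by 0.53 and higher in blood by 1.00, and Rps16 gave -0.17 in spleen and 0.85 in blood. Probes again diverged: the dimmer probe of Rps3 gave -1.66 in spleen where the bright probe gave -0.50, and the dimmer probe of Rps24 gave -0.98 where the bright one gave 0.08. Kit, stabilisation, time and mice changed together between the experiments and cannot be told apart.

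**Figure D5:**
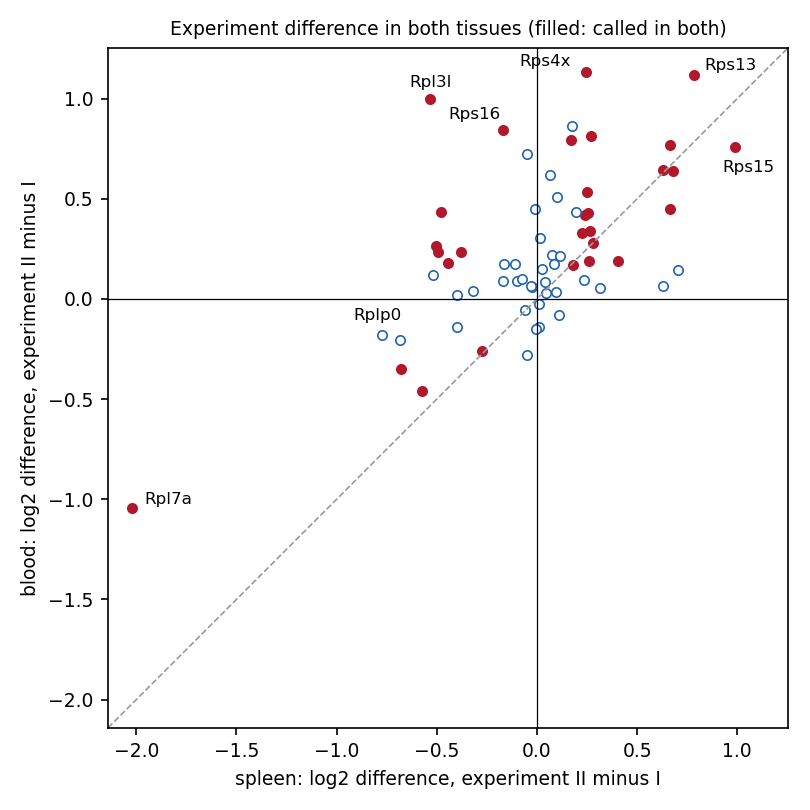
Experiment II minus experiment I difference (log2) of each member in spleen (horizontal) and blood (vertical); filled points are called in both tissues and the dashed line marks equal values. Rpl7a lies far to the lower left (-2.02 and -1.05), Rps13 to the upper right (0.79 and 1.12), and Rpl3l at -0.53 and 1.00.

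Within the same mouse, 49 members differed between spleen and blood, 46 higher and 3 lower in spleen. Over all genes 77.1% were called, 62.9% higher and 14.3% lower, so the number of members called was near the background. The tissues were normalised apart, so the level of all genes has no shared zero: the median of all genes was 0.14 (log2) and that of the members 0.29. After quantile normalisation of all arrays together the median of all genes was -0.01 and that of the members 0.25. The split of called members was then 45 higher and 7 lower (68.4% of all genes called). With arrays centred on their median it was 28 higher and 17 lower (90.7% of all genes called). The split of all genes by direction is not given for these scalings. As deposited, the largest differences were Rpl4 at 1.38 ± 0.05 (log2, SE; limma adjusted p = 3.89e-28), Rpl22 (1.37), Rpl27a (1.23), Rpl13a (1.21), Rpl29 (1.14), Rpl7l1, a paralog that works in large subunit assembly (1.13), Rps3a1 (1.05), Rps27l (0.95) and Rps15a (0.90). Rpl4 ran from 10.25 to 11.68 (log2 intensity) over the 48 spleens and from 9.03 to 9.98 over the 48 bloods, with no overlap. Rpl22, which in mice is needed for T cell development, had a median between 9.78 and 10.92 in the spleen groups and between 8.68 and 9.43 in the blood groups. Rpl3l was lower in spleen by 1.07, and Rpl39 (-0.19), a protein of the exit tunnel, and Rpl41 (-0.14) were lower by less. Sizes and order depended on the scaling. With all arrays normalised together, Rpl29 (0.96), Rps26 (0.93), Rpl3 (0.78) and Rps3 (0.77) were highest in spleen, Rpl4 gave 0.68, Rpl22 0.62, Rpl13a 0.46, Rpl27a 0.42, Rpl7l1 0.34 and Rps3a1 0.24. In that scaling Rpl3l (-1.69) stayed lower, and the core genes Rpl7a (-0.53; limma adjusted p = 1.21e-08) and Rpl24 (-0.45; adjusted p = 8.7e-08) were lower too, where Rpl7a was higher as deposited, while the calls of Rpl39 (-0.08; adjusted p = 0.212) and Rpl41 (-0.02; adjusted p = 0.699) were lost.

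Each experiment called the tissue difference on its own. Experiment I alone called 52 members (71% of genes) and experiment II 43 (67.7%). Of 38 members called in both, 35 had the same direction, 34 higher and 1 (Rpl3l) lower in spleen. Its size depended on the experiment for 33 members (background 46.6% of genes). Of these, 28 had a lower and 5 a higher spleen minus blood value in experiment II. Over all genes 25.2% were called lower and 21.4% higher. Rpl3l gave -0.31 in experiment I and -1.84 in experiment II, a difference of -1.53 ± 0.14 (limma adjusted p = 1.93e-12), followed by Rps16 (-1.02), Rpl7a (-0.98), Rps6 (-0.92) and Rps4x (-0.89), and in the other direction by Rpl37a (0.56) and Rpl28 (0.56). Rpl22 gave 1.26 and 1.48, Rpl13a 1.26 and 1.16, and Rpl7l1 1.26 and 1.00. Ribosome biogenesis genes were higher in spleen for 65 of 72 (median 0.97) and cell cycle markers for 29 of 35, where 62.9% of all genes were.

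Whether the genotype difference itself differed between the tissues was tested on the same pairs. For the members 0 were called in limma (background 4.11% of genes). An unadjusted p under 0.05 was found for 8 members and for 2193 of the 16593 genes. Rps16 had the smallest p, at -0.35 ± 0.13 (log2, SE; adjusted p = 0.152), with -0.35 in each experiment. In experiment II alone Rps7 (-0.35, limma adjusted p = 0.0183) and Rps9 (-0.24, limma adjusted p = 0.0403) were called, where 6.07% of genes were.

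Levels of the paralogs and their parents are given per probe, and probes of different genes cannot be set against each other. Rpl3 had group means of 13.88 to 14.14 (log2 intensity) in spleen and 13.32 to 13.49 in blood, and Rpl3l 6.91 to 7.20 and 7.84 to 8.43. Rpl22 had 10.30 to 10.73 in spleen and 9.01 to 9.20 in blood, and Rpl22l1 stayed between 6.17 and 6.27 and between 6.08 and 6.12, near the array's median. Rpl39 had 13.08 to 13.49 in spleen and 13.36 to 13.57 in blood, and Rpl39l, best known from testis, stayed between 5.94 and 6.01 in spleen. Rps27 had 13.38 to 13.82 in spleen and 13.10 to 13.24 in blood, with Rps27l at 12.16 to 12.67 and 11.37 to 11.57. Around the fit of groups plus experiment the core members varied more than the median gene. Their residual SD had a median of 0.247 (log2) in spleen and 0.289 in blood, against 0.146 and 0.145 over all genes. This SD also holds any day difference that changed between the experiments. The median gene level was 6.47 in spleen and 6.25 in blood, far below most core members, and the part of the level in the spread was not tested.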

How the data were processed

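RNA of whole spleen and blood of 48 mice had been hybridised to 96 Illumina arrays. The deposited table holds intensity on a linear scale, where log2 values had been assumed, so log2 was taken first. Its values show that the authors quantile normalised each tissue apart over both experiments; background correction is not given in the sources used here. Limma is named in the submitters' processing notes without a version. Of 25697 probes, 23978 carried 1 gene symbol, 0 several and 1719 none; 23962 matched the GRCm38.p6 gene table by Entrez identifier. The brightest probe was kept for each of 16593 genes.

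The model (limma 3.58.1, R 4.3.3) held 4 groups of genotype and day plus experiment, for each tissue and for the spleen minus blood difference of each mouse. Adjusted p is Benjamini-Hochberg over all genes within a comparison, called under 0.05. Labels give separate mice as replicates. Members, lists and the naming rule (the 10 largest called rises and falls with 1 sign in both experiments, the 5 of smallest p where fewer than 5 were called, paralogs, and members of the lists) were chosen with earlier results of these data known; genes named for a within-experiment result, a probe disagreement or a difference between experiments were chosen after their values were seen. Same-mouse tissue residuals correlated above 0.1 in 20 of 48 mice (median 0.08); the pairing comes from the titles. Arrays have no sequencing depth; their number limits the precision. The fit was tested on simulated data. Alternatives covered probes, filters, scaling, background, experiment and left-out arrays.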

Additional observations from a re-analysis of the deposited data

Results flagged for a closer look

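The day difference in spleen was not the same in the 2 experiments: the test of that difference was called for 17 members, where 14.8% of all genes were called. Day differences of experiments I and II, in this order, were -0.88 and 0.06 for Rps15, -0.79 and -0.17 for Rps13, and 0.81 and 0.26 for Rplp0. Without the 4 spleens with pancreas transcripts 5 members were called in this test (5.02% of all genes), and without the 10 mice 11 were (12% of genes).

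The difference between spleen and blood also depended on the experiment, with 33 members called, where 46.6% of all genes were. Rpl3l gave -0.31 and -1.84 in experiments I and II, and Rps16, called in the same test, had a difference between experiments of -1.02 ± 0.13 (log2, SE; limma adjusted p = 5.15e-09). What in the kits, stabilisation or mice moved with these values was not tested.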

How the results depend on the processing

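Of 1401 repeats of a named member under an alternative, 1306 kept direction and side of the threshold, 70 lost the call and 23 gained it; 2 uncalled values turned sign in experiment II alone, Rpl22l1 in the spleen genotype by day difference (-0.0153) and Rps19bp1 in blood at day 44 (0.0122). Counts of members called moved as follows. The spleen genotype comparison over both days (0 called) gave 1 with every probe (9% of probes called) and 3 over genes above the median level (22.7% of those genes). With all arrays quantile normalised together it gave 1 (10.5% of genes). In experiment II alone it gave 2 (7.94%), and without the 4 spleens that lay with the other day, picked by their expression, 4 (9.61%). At day 44 these last 2 settings gave 2 and 1 (6.07% and 5.11%). The spleen day comparison (30) gave 18 with no experiment term (10.4% of genes) and 0 in experiment II alone (0.00603%). It gave 4 without the 10 mice with pancreas transcripts (3.49%) and 18 without the 4 such spleens (10.4%). Its difference between experiments (17) gave 11 and 5 for the last 2 (12% and 5.02%). In blood the genotype count (1, Rpl3l) was 0 with no experiment term, in experiment I alone and without the pancreas mice or arrays, both over both days and at day 44, where the joint normalisation gave 0 too. In these settings between 0% and 3.4% of all genes were called. Experiment II alone gave 3 over both days (4.08% of genes), 6 at day 15 (2.68%), 4 by day (4.8%) and 5 for genotype by day (4.16%). For genotype by tissue it gave 2 (6.07%).

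With the mouse as a replicate block in 1 fit of all arrays, 27 members were called by day in spleen (21.6% of all genes). By genotype 0 and 1 were called in spleen and blood (9.56% and 1.7% of genes), and between experiments 38 and 44 (53.1% and 64.1%). Between tissues 49 were called (77.6%), and without the block also 49 (77.3%). The block changed no other count of calls by over 1.5 times. The pancreas arrays per tissue, the 4 spleens, both differences between experiments and the motif counts were chosen after seeing the data. Where a cause is not named, it was not tested. Members at the top of the intensity range or near background can differ by more than their probes show. No left-out mouse was tried 1 at a time. Each group holds 12 arrays, but only 6 in experiment I or II alone. Calls made in 1 experiment are thus more open to a single mouse, and this was not tested.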
